A study of Homo sapiens with 11 samples.

Results

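C/D box small nucleolar RNAs (snoRNAs) made up 148 of the 23287 gene rows measured in human embryonic stem cells, and 139 of the 148 were listed at 0 in all 11 libraries. They were taken as every row whose name starts with SNORD and a number, leaving out the imprinted repeat families SNORD113 to SNORD116. The 9 members with a value were SNORD8, SNORD10, SNORD15A, SNORD15B, SNORD17, SNORD22, SNORD89, SNORD94 and SNORD97. Only SNORD17 and SNORD22 had a value above 0 in every library.

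RNA from the lines H1 and H7, established lines of human embryonic stem cells, was sequenced from primed cultures and from the naive media 5iLA and t2iGo, with 1 library per group. In 9 libraries the cells carried a lentiviral shRNA and were collected 5 days after infection. A control shRNA, an shRNA named uCCNE1 and an shRNA named pCCNE1, after a splice form of CCNE1 (cyclin E1) that only primates have, were each used in t2iGo H1, primed H1 and 5iLA H7. The other 2 libraries were primed H7 and 5iLA H7 cells without treatment. No group had a replicate, so tests took cultures (for shRNAs) or shRNAs (for cultures) as if they were replicates, and the p-values then reflect the spread of these libraries alone, which can be technical. All values are RPKM, reads scaled by RNA length and by library depth, as the authors deposited them. The RNA came from whole cultures, so fewer cells of a type and less RNA per cell cannot be told apart.

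CCNE1, on chromosome 19, is given as 1 value per gene, so its splice forms cannot be told apart. It stood at 11.95, 6.75 and 10.5 RPKM in primed H1 with the control, uCCNE1 and pCCNE1 shRNA, at 14.1, 5.27 and 8.38 in 5iLA H7, and at 9.65, 5.38 and 5.25 in t2iGo H1. It was lower with either CCNE1 shRNA than with the control in each culture, and stood at 5.65 (primed) and 8.48 (5iLA) in the untreated H7 cells. The estimated depth, from the smallest steps of the values, was 6.40 to 14.1 M reads for t2iGo H1, 11.5 to 16.8 for 5iLA H7, 18.97 to 23.7 for primed H1, 13.4 for untreated primed H7 and 24.9 for untreated 5iLA H7. Pluripotency genes (POU5F1, SOX2, NANOG, LIN28A) were above 0 in all libraries. The summed level of 5 markers of the naive state (KLF17, DPPA3, DPPA5, KLF4, TFCP2L1) was 350 to 561 RPKM in 5iLA H7 and 103 in untreated 5iLA H7. It was only 1.21 to 1.79 in t2iGo H1, against 1.65 to 2.76 in primed H1 and 0.859 in untreated primed H7, so the t2iGo libraries held no more of these markers than primed H1. They are named here by their medium, and naive is used below only for culture in 5iLA or t2iGo. KLF17 was at 0 in 2 of the 3 t2iGo libraries.

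C/D box snoRNAs are short RNAs cut from introns of host genes. They carry a C box near the 5′ end and a D box near the 3′ end, which are bound by the proteins NHP2L1 (also called SNU13), NOP56, NOP58 and fibrillarin (FBL). Bases before a D box pair with a target RNA, mostly ribosomal RNA or the spliceosomal U6 RNA, and fibrillarin then methylates the ribose at that place. A few members are needed for cutting the ribosomal RNA precursor, and orphan members have no known target.

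The sequences of 8 of the 9 members with a value are shown because they include the longest of the class. They are given 5′ to 3′ from the GENCODE 29 transcripts (build GRCh38), with the first C box (TGATGA) on the 5′ side of the middle and the last D box (CTGA) on the 3′ side in capitals where these exact letters occur on the RNA strand. Some lengths differ between annotations, as for SNORD10, with 142 bases here and 148 in RefSeq.
SNORD8: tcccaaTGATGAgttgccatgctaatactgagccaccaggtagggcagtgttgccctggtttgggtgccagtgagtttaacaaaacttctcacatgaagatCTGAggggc
SNORD89: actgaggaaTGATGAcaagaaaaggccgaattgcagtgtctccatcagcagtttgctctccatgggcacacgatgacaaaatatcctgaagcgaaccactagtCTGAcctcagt
SNORD22: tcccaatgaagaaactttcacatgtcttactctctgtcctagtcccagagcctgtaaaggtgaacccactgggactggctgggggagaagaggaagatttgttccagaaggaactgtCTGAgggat
SNORD94: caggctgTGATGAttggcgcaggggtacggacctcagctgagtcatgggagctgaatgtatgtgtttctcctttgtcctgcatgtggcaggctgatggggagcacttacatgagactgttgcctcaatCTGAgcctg
SNORD97: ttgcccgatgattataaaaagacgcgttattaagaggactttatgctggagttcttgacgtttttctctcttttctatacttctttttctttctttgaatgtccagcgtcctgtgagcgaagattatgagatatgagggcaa
SNORD15A: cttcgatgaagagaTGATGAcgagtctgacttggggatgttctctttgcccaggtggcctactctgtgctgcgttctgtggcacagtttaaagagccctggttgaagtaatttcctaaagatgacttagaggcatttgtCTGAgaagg
SNORD10: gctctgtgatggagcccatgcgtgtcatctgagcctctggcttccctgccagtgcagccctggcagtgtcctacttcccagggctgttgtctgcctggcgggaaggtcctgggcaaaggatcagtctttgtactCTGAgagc
SNORD17: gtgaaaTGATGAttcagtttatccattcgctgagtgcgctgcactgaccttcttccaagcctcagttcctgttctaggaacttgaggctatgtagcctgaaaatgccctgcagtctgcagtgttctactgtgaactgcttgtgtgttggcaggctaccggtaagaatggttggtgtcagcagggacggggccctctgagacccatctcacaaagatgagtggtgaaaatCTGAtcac
SNORD67, of 111 nucleotides (nt), and SNORD48, a common reference RNA in small RNA PCR, are shown beside them as members listed at 0 in all 11 libraries.
SNORD67: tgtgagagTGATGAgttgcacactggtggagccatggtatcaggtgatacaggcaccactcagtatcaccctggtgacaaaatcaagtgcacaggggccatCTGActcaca
SNORD48: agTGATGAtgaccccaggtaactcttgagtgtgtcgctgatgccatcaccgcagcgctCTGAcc

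The boxes matched the class name. Of the 130 members with a GENCODE sequence, 127 (97.7%) held the D box letters on the 3′ side of their middle, 84 (64.6%) the C box letters on the 5′ side and 83 (63.8%) both. Among 105 H/ACA box snoRNAs, the other large class, which guides pseudouridine formation, 23 (21.9%) held the D box letters and 1 (0.952%) the C box letters. Of the 8 members with a value shown, 7 held the D box letters and 5 the C box letters. SNORD97 had neither in these exact letters, and SNORD22 and SNORD10 had no exact C box. These 8 were not copies of one another: the closest pair, SNORD8 and SNORD22, was identical in 57.6% of its aligned columns.

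Length set apart the members with a value from those without. Of the 146 members with a RefSeq length, which ran from 48 to 237 nt with a median of 76, all 134 under 109 nt were at 0 in all libraries, the longest of them being SNORD90 with 107 nt. Of the 4 members of 109 to 112 nt, SNORD8 (109 nt) had a value in 3 libraries, and SNORD23 (110 nt), SNORD67 (111 nt) and SNORD11B (112 nt) had none. All 8 members of 114 nt or more had a value in at least 6 libraries. SNORD121B and SNORD124, which had no RefSeq length, were also at 0. With lengths from GENCODE instead, 8 of 8 members over 111 nt, 1 of 4 members of 110 or 111 nt and 0 of 118 shorter members had a value.

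**Figure D1:**
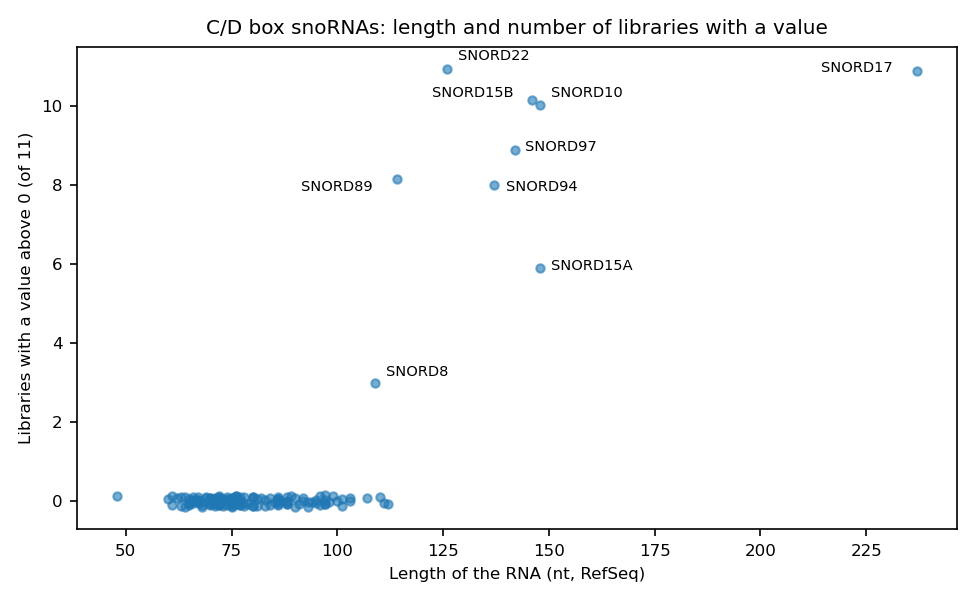
Number of libraries, of 11, in which each C/D box snoRNA had a value above 0 (vertical axis, points shifted slightly so that they do not hide each other) against its RefSeq length in nucleotides (horizontal axis), for the 146 members with a length. All 134 members under 109 nt lie at 0, and the 8 members of 114 nt or more lie at 6 or higher.

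The same edge was present in rows of other kinds. None of the 1191 other rows of 1 to 100 nt had a value above 0 in any library. Over all rows, 4 of 80 of 101 to 110 nt, 5 of 39 of 111 to 120 nt and 30 of 46 of 121 to 130 nt had one. The lowest value above 0 of a row was lower for longer rows. Its median was 129 RPKM at 101 to 110 nt, 19.4 at 121 to 130 nt, 5.44 at 141 to 150 nt and 0.498 at 251 to 400 nt. In C/D box members it was 128 for SNORD8, 61.4 for SNORD89, 26.1 for SNORD22 and 1.11 for SNORD17, the longest. No member had a value above 0 but under 0.1. By length and estimated depth, a single read on SNORD17 would already give 0.178 RPKM in primed H1 with pCCNE1, so such values could hardly occur.

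**Figure D2:**
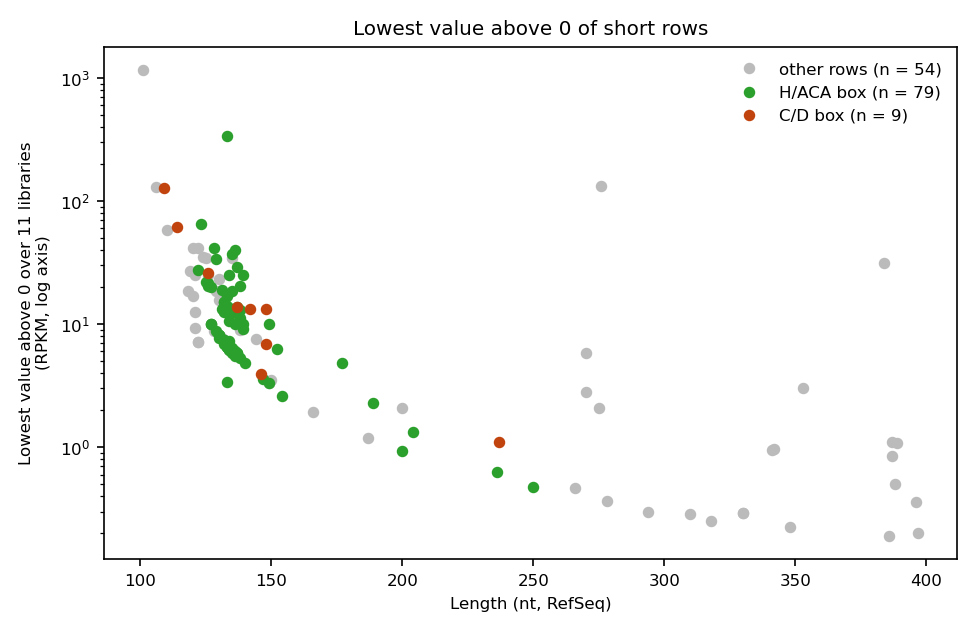
Lowest value above 0 over the 11 libraries (RPKM, log axis) against RefSeq length in nucleotides for rows up to 400 nt with any value above 0: 9 C/D box members, 79 H/ACA box snoRNAs and 54 other rows. The C/D box points go from 128 for SNORD8 to 1.11 for SNORD17, the longest, and most longer rows lie lower, with exceptions such as UQCRHL at 133 RPKM.

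These values could not be turned into reads. For each member the lowest value above 0 was set against the RPKM of a single read computed from the full length and the estimated depth. It was 348 times as high for SNORD8, 175 times for SNORD89, 44.05 times for SNORD22 and 6.20 times for SNORD17. In rows of 1 to 3 kb, the first percentile of values above 0 was 0.541 to 0.851 times that of a single read. The changes below are therefore between libraries for the same member, and shares of a sum are shares of RPKM, not of molecules.

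Many well-studied members stood at 0 throughout. The 8 members used as reference RNAs in small RNA PCR (SNORD44, SNORD47, SNORD48, SNORD61, SNORD68, SNORD72, SNORD95 and SNORD96A), of 61 to 80 nt, were at 0 in all libraries. So were SNORD64, SNORD107, SNORD108, SNORD109A and SNORD109B, orphan or imprinted members of 67 to 75 nt. All 10 members of the host gene GAS5, of 60 to 81 nt, and all 4 of RPL13A were at 0, and of the 8 members of SNHG1 only SNORD22 had a value. U3, U8, U13 and U14, which act in cutting the ribosomal RNA precursor, had no row among the 148 members and were not analysed here.

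The count of members listed at 0 differed little between libraries. It was 145, 144 and 144 in primed H1 with the control, uCCNE1 and pCCNE1 shRNA, 139, 140 and 140 in 5iLA H7, and 140 in each t2iGo H1 library. Untreated primed H7 had 141 and untreated 5iLA H7 139. Primed H1 thus had the most zeros and, within the shRNA table, the deepest libraries by the estimate. In all, 76 of 1628 values were above 0.

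Summed over the class, C/D box snoRNAs held 0.0226%, 0.0165% and 0.0187% of all RPKM in primed H1 with the control, uCCNE1 and pCCNE1 shRNA. They held 3.18%, 2.60% and 1.18% in 5iLA H7, and 1.35%, 2.49% and 2.09% in t2iGo H1. Untreated primed H7 had 0.951% and untreated 5iLA H7 had 2.16%. All primed H1 shares lay below all others. The mean log2 share was 6.65 ± 0.30 (SE, n = 3 libraries per culture) higher in t2iGo H1 than in primed H1, a 100-fold difference, with p = 0.1 by an exact two-sided permutation test, the smallest p that 3 against 3 can give.

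Other small RNAs moved with them. All small non-coding RNA rows together held 0.218% to 0.521% of RPKM in primed H1, 13.1% to 16.7% in t2iGo H1, 16.2% to 27.5% in 5iLA H7, 9.86% in untreated primed H7 and 31.6% in untreated 5iLA H7. The C/D sum was 12.1% to 31.2% of the H/ACA sum in all 11 libraries, with 13.1% to 15.1% in primed H1, so both classes were low there together. The description labels of the primed H1 libraries hold an index sequence alone, and those of all other libraries hold a sample code, an index sequence and a lane tag. Whether they were prepared or sequenced apart is not given in the sources used here, and such a difference cannot be told apart from that of the culture. Untreated primed H7, whose description label has the form of those of the naive libraries, held a share of C/D snoRNAs below the lowest naive share (1.18%) and far above those of primed H1. It was also of another line, uninfected and in a table taken as normalised separately, so its levels are set beside the others without a test.

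Members that guide methylation of 28S ribosomal RNA held much of the sum. SNORD15B, on chromosome 11 within the ribosomal protein gene RPS3, stood at 7.14, 3.93 and 0 RPKM in primed H1 with the control, uCCNE1 and pCCNE1 shRNA. It stood at 2512, 1625 and 719 in 5iLA H7, at 892, 1711 and 658 in t2iGo H1, at 665 in untreated primed H7 and at 914 in untreated 5iLA H7. It was thus at most 7.14 in primed H1 and at least 658 elsewhere, and held the largest part of the C/D sum in 6 of those 8 libraries. SNORD17, on chromosome 20 within SNX5, stood at 4.75, 6.25 and 1.11 in primed H1, 655, 381 and 274 in 5iLA H7, 304, 407 and 305 in t2iGo H1, 103 in untreated primed H7 and 814 in untreated 5iLA H7. Its primed H1 values lay far below all others, and its 6 naive shRNA values, within 2.39-fold of each other, were the least spread of the 9 members. SNORD15A, the neighbour of SNORD15B in RPS3, was at 0 in primed H1, in untreated primed H7 and in t2iGo H1 with pCCNE1. It stood at 28.96, 37.1 and 13.3 in 5iLA H7, at 36.4 and 50.3 in t2iGo H1 with control and uCCNE1, and at 35.6 in untreated 5iLA H7. Where it had a value, it was 1.15% to 4.08% of SNORD15B, which is of nearly the same length (148 and 146 nt).

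The members that guide methylation of U6 RNA were SNORD8, SNORD10 and SNORD94. SNORD10, on chromosome 17 within the translation factor gene EIF4A1, stood at 0, 14.6 and 6.95 RPKM in primed H1, 562, 223 and 153 in 5iLA H7, 459, 554 and 200 in t2iGo H1, 59.8 in untreated primed H7 and 336 in untreated 5iLA H7. SNORD94, on chromosome 2 within PTCD3, was at 0 in all 3 primed H1 libraries and stood at 237, 123 and 32.2 in 5iLA H7, 178, 588 and 69.4 in t2iGo H1, 13.8 in untreated primed H7 and 321 in untreated 5iLA H7. For both, every naive value exceeded every primed one. SNORD8, on chromosome 14 within CHD8, was above 0 in 3 libraries only, with 227 in 5iLA H7 control, 953 in t2iGo H1 with pCCNE1 and 128 in untreated 5iLA H7. All 3 came from cells in 5iLA or t2iGo, while the other 4 libraries from these media were at 0, and its length lies on the edge where values begin.

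The remaining 3 have other roles. SNORD22 (U22), on chromosome 11 within SNHG1, is needed for making 18S ribosomal RNA. It stood at 69.0, 32.1 and 42.5 RPKM in primed H1, 531, 242 and 102 in 5iLA H7, 114, 579 and 142 in t2iGo H1, 26.1 in untreated primed H7 and 40.6 in untreated 5iLA H7. It held the largest part of the C/D sum in primed H1, 56.5% to 85.3%, and was the one member whose naive value without treatment fell within the primed H1 range. SNORD97, on chromosome 11 within EIF4G2, guides methylation of a methionine tRNA. It stood at 0, 0 and 13.3 in primed H1, 1075, 615 and 179 in 5iLA H7, 309, 737 and 692 in t2iGo H1, 197 in untreated primed H7 and 2427 in untreated 5iLA H7. In untreated 5iLA H7 it alone made up 47.8% of the C/D sum. SNORD89, an orphan on chromosome 2 within RNF149, was at 0 in primed H1 and stood at 1316, 368 and 180 in 5iLA H7, 203, 127 and 449 in t2iGo H1, 304 in untreated primed H7 and 61.4 in untreated 5iLA H7. It was the only member lower in untreated 5iLA H7 than in untreated primed H7.

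**Figure D3:**
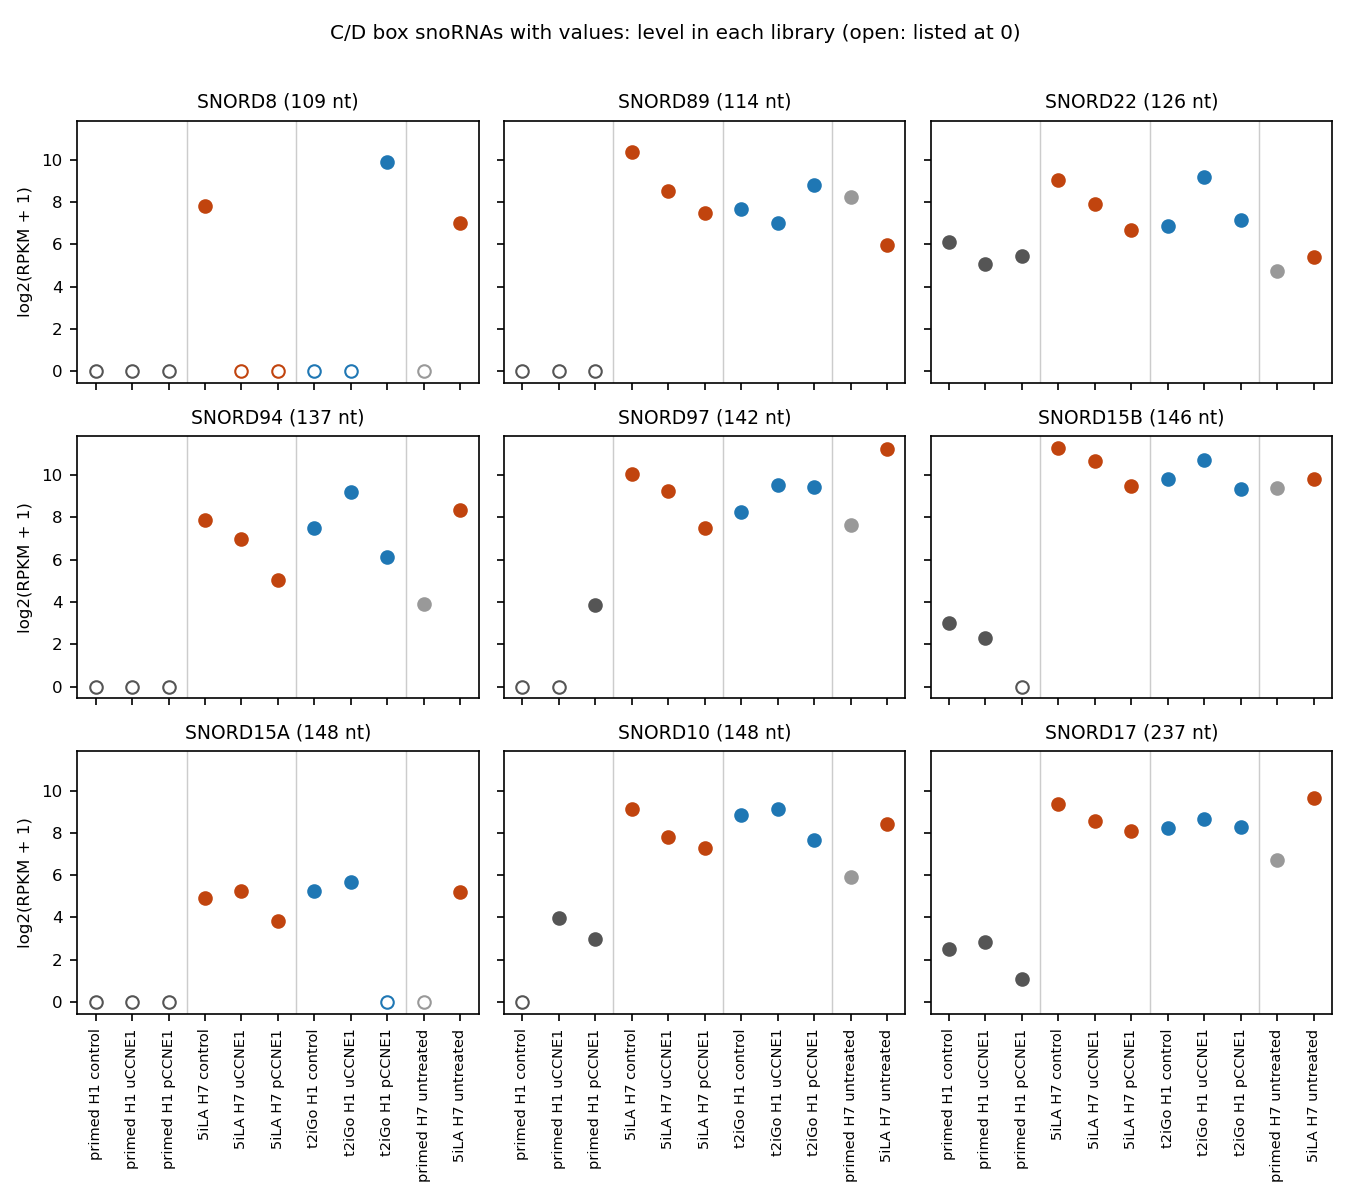
Level of each of the 9 C/D box snoRNAs with a value, as log2(RPKM + 1) (vertical axis), in each of the 11 libraries (horizontal axis), 1 point per library, with open points for values listed at 0 and colours for cultures. The primed H1 points lie at 14.6 RPKM or lower for all members but SNORD22, and SNORD15B lies at 658 RPKM or more in every other library.

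The H1 line was grown both primed and in t2iGo, and this comparison asked how the medium went with snoRNA levels in 1 line. Of the 148 members, 6 were higher and 0 were lower in t2iGo H1 (limma on log2(RPKM + 1), all 23287 rows, adjusted p under 0.05), and the 139 members at 0 differed by 0. Over all rows, 6.02% were called higher and 38.1% lower, and the share of members called higher, 4.05%, was near the background. A member at 0 throughout could be called in neither direction. All members but SNORD22 stood at 14.6 RPKM or lower in primed H1, with little room to be called lower. The 0 lower calls are therefore not read as a result. H/ACA box snoRNAs gave 21 higher and 3 lower of 105. For 7 of the 9 members with a value, all 3 t2iGo values exceeded all 3 primed ones. Such separation was not counted over all rows, so it is not read as a result.

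Among the 28S guides, SNORD15B was higher in t2iGo H1 by 8.19 ± 0.52 (SE) on the log2(RPKM + 1) scale (limma, adjusted p = 7.01e-04) and SNORD17 by 6.24 ± 0.40 (adjusted p = 6.92e-04). SNORD94, at 0 in all primed libraries, was higher by 7.61 ± 0.76 (limma, adjusted p = 0.00168), and SNORD89, also at 0 there, by 7.83 ± 0.81 (adjusted p = 0.00189). The size of such a difference from 0 rests on the pseudocount: with 0.1 in place of 1 it was 10.92 for SNORD94 and 11.14 for SNORD89. SNORD97 was higher by 7.80 ± 1.35 (limma, adjusted p = 0.00856) and SNORD10 by 6.22 ± 1.16 (adjusted p = 0.0109). Both had zeros in primed H1, and their calls were lost when the libraries of 1 shRNA were left out. SNORD97 had an adjusted p of 0.0672 without the control and 0.0999 without the uCCNE1 libraries, and SNORD10 0.0737 without the uCCNE1 and 0.0750 without the pCCNE1 libraries.

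The other 3 did not pass. SNORD22 differed by 2.19 ± 0.82 (limma, adjusted p = 0.0922), SNORD15A by 3.64 ± 1.23 (adjusted p = 0.0692) and SNORD8 by 3.30 ± 3.48 (adjusted p = 0.544). The SNORD8 difference came from 1 t2iGo library and was 0 without the pCCNE1 libraries. SNORD15A passed without the pCCNE1 libraries, at 5.45 (limma, adjusted p = 0.0150). Among the 12116 rows with a mean of at least 1 RPKM, where 8.77% were called higher and 63.0% lower, both SNORD15A (limma, adjusted p = 0.00176) and SNORD22 (adjusted p = 0.00435) passed. SNORD15A, at 0 in all primed H1 libraries, entered that set only through the cultures where it was high, so its call there adds no support. The median over all rows was -0.17, and primed H1 had a summed RPKM of 341088 to 357685 against 165589 to 190718 in t2iGo H1. With libraries rescaled to equal summed RPKM of rows other than small non-coding RNAs the median became 0, 55.7% of all calls were higher in place of 13.6%, and SNORD22 also passed, at 3.33 (limma, adjusted p = 0.0247). With quantile normalization 50.6% of all calls were higher and those 7 members passed as well. Summed markers of fibroblasts, a possible feeder cell (COL1A1, COL1A2, COL3A1, LUM, DCN, 5 of 5 above 0 in each of these libraries), were 67.0 to 220 RPKM in t2iGo H1 and 32.8 to 51.0 in primed H1, and 3.26 to 14.3 in 5iLA H7, where the same members were also above primed H1. The list split between the H1 cultures: COL3A1 (47.3 to 136.5 against 0.180 to 1.08 RPKM), LUM and DCN were higher in t2iGo, COL1A2 was lower (1.41 to 2.31 against 23.2 to 29.6) and COL1A1 overlapped (3.70 to 6.73 against 5.53 to 20.6). Their part in the difference was not tested.

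C/D box snoRNAs are cut from introns of host genes, and a host's own RNA has its own row. In GENCODE, 129 of the 130 placed members lie inside a gene on the same strand, and 63 have an intronic place in at least 1 host. SNORD8, SNORD10, SNORD15A, SNORD22, SNORD89 and SNORD97 lie in an exon of at least 1 transcript of their host. Whether the counting used strand is not given in the sources used here. Reads of a host's RNA, unspliced or with such an exon, and of its snoRNA cannot be told apart. With the values as deposited, no host of a member with a value was called higher in t2iGo H1. RPS3, host of SNORD15A and SNORD15B, stood at 500.2, 450.2 and 481 RPKM in primed H1 and at 96.1, 89.6 and 59.7 in t2iGo H1, a difference of -2.56 ± 0.21 (limma, adjusted p = 0.00103). EIF4A1 differed by -1.39 (limma, adjusted p = 0.00678), EIF4G2 by -0.75 (adjusted p = 0.00831), SNHG1 by -1.08 (adjusted p = 0.0256) and SNX5 by -0.64 (adjusted p = 0.0483). PTCD3, RNF149 and CHD8 did not pass. Only RPS3 kept its lower call under both other scalings, at -1.40 rescaled (limma, adjusted p = 0.00227) and -1.56 with quantile normalization (adjusted p = 0.00217). SNX5, PTCD3, RNF149, CHD8 and EIF4G2 were above 0 under both. After rescaling, CHD8 (1.10, limma adjusted p = 0.00410), PTCD3 (0.68, adjusted p = 0.0150), SNX5 (0.50, adjusted p = 0.0165) and EIF4G2 (0.41, adjusted p = 0.0439) were called higher. With quantile normalization CHD8 (0.83, limma adjusted p = 0.0101) and PTCD3 (0.40, adjusted p = 0.0443) were called higher. The direction of most hosts thus depended on the scaling, while that of the called snoRNAs did not.

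**Figure D4:**
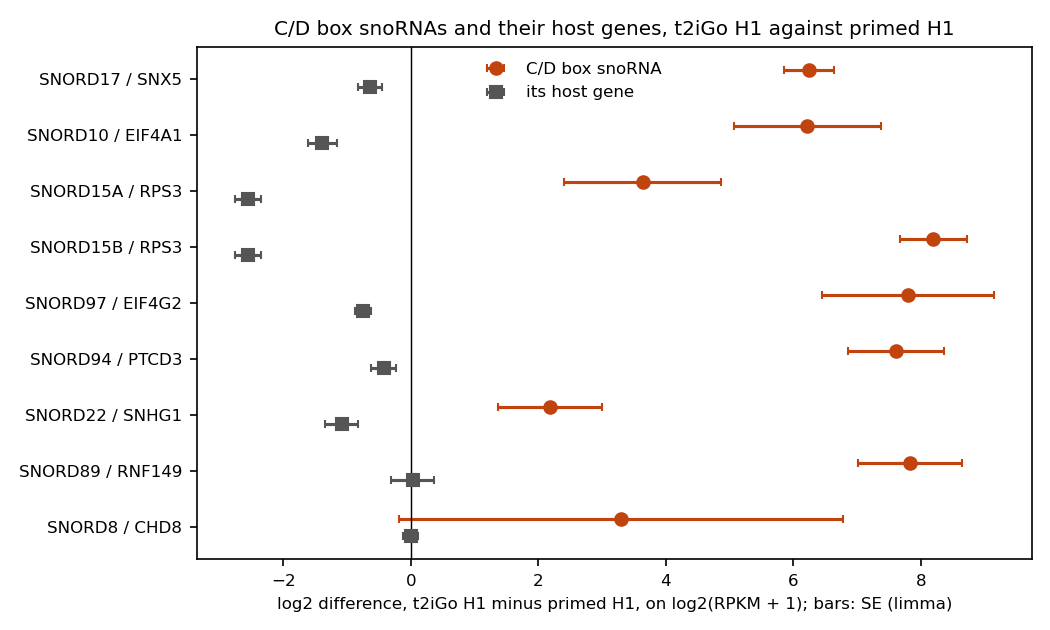
Difference between t2iGo H1 and primed H1 on the log2(RPKM + 1) scale (horizontal axis) for the 9 C/D box snoRNAs with a value (circles) and their host genes (squares), with bars for the SE from limma. The snoRNAs lie between 2.19 and 8.19 and the hosts between -2.56 and 0.03, with RPS3 drawn for both SNORD15 members. Under the other scalings most hosts but not RPS3 move to the other side of 0 or near it.

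The proteins that bind these RNAs and build the particle were described with a list of 22 genes. In t2iGo H1 against primed H1, 0 rose and 14 fell (limma, adjusted p under 0.05), with a median of -0.68 against -0.17 over all rows, of which 6.02% were called higher and 38.1% lower. After rescaling, 11 rose and 8 fell, against 21.7% and 17.3% of all rows. With quantile normalization 9 rose and 10 fell, against 19.5% and 19.02%, so the list had no direction that held under all scalings. FBL, the methyltransferase, was lower at -3.52 ± 0.25 (limma, adjusted p = 8.45e-04), and at -2.37 and -2.58 under rescaling and quantile normalization. NHP2L1, which binds the box motif first, was lower at -1.96 ± 0.22 (limma, adjusted p = 0.00225), and at -0.82 and -1.04 under those scalings. RUVBL2, an assembly ATPase, was lower at -3.02 (limma, adjusted p = 8.24e-04), and at -1.93 and -2.14. The core protein NOP58 differed by 0.02 (limma, adjusted p = 1), but was called higher after rescaling (1.16, adjusted p = 0.00240) and with quantile normalization (0.99, adjusted p = 0.00321). NOP56 differed by -0.75 (limma, adjusted p = 0.0159), which turned to 0.41 and 0.27 under the other scalings. Of 44 measured host genes of a list of 46, 0 rose and 29 fell (against 38.1% of all rows), with a median of -1.30. After rescaling 10 rose and 13 fell, and with quantile normalization 8 rose and 15 fell, against the same shares of all rows as for the particle list.

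Between the naive media, 5iLA H7 and t2iGo H1 differ in line as well as medium. No member passed the test in either direction (limma, 0 of 148, 0 with an unadjusted p under 0.05), where 8.37% of all rows were called higher and 19.9% lower in 5iLA H7. For none of the 9 members did the values of 1 medium all lie above those of the other, which was likewise not counted over all rows. The standard errors of these differences ran from 0.40 (SNORD17) to 3.48 (SNORD8) on the log2(RPKM + 1) scale. Of the particle list (22) 1 gene was called higher in 5iLA H7 and 5 lower, but 4 and 6 after rescaling and 7 and 5 after quantile normalization. Of the host list (44) 2 were called higher and 4 lower, but 17 and 3 after rescaling and 12 and 3 after quantile normalization, so the balance of both lists turned on the scaling. Over all rows 13.4% were called higher and 18.99% lower after rescaling, and 14.8% and 17.2% with quantile normalization, so that 41.4% and 46.2% of all calls were higher, in place of 29.6%. Without the pCCNE1 libraries 0 genes of either list were called.

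The comparisons of the shRNAs asked whether lowering a CCNE1 form went with snoRNA levels. All 9 members with a value passed the filter of a mean of at least 1 RPKM over the 9 libraries, and the 139 others did not. With pCCNE1 against control, 0 of the 9 passed (limma, adjusted p under 0.05), as did 0% of the 12116 rows tested in either direction. An unadjusted p under 0.05 was given to 4 of the 9 members and to 1792 of the 12116 rows. The members' median difference was -0.90, against -0.15 over all rows and -0.97 in 73 H/ACA box snoRNAs. Below 0 lay 7 of 9 members and 8945 of the 12116 rows, so this count was near the background. SNORD15B, with 3 of 3 cultures lower, differed by -1.76 ± 0.38 (limma, adjusted p = 0.1996), SNORD94 by -1.40 ± 0.52 (adjusted p = 0.256) and SNORD17 by -0.90 ± 0.31 (adjusted p = 0.235). The SNORD15B difference was largest in primed H1, at -3.02, from 7.14 RPKM with the control to a listed 0. It was -1.80 in 5iLA H7 and -0.44 in t2iGo H1. On the other side lay SNORD97 at 0.81 ± 0.90 (limma, adjusted p = 0.713) and SNORD8 at 0.69 ± 2.28 (adjusted p = 0.910).

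These counts rested on which cultures entered. Without primed H1, SNORD15A (-3.15) and SNORD94 (-2.09) passed for pCCNE1 against control (limma, adjusted p = 0.0102 and 0.0249). This fit had 2 residual and 20.1 prior degrees of freedom. SNORD15A differed by -1.07 in 5iLA H7 and by -5.23 in t2iGo H1, where it was listed at 0 with pCCNE1. Without t2iGo H1, 6 members passed, all lower: SNORD8, SNORD15B, SNORD17, SNORD22, SNORD89 and SNORD94. In that fit of 6 libraries the spread was taken almost wholly from other genes (761 prior degrees of freedom, against 7.37 with all 9 libraries). SNORD8 passed there with a value in only 1 of the 6 libraries.

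With uCCNE1 against control, 0 of 9 members passed (limma, 0% of all rows, 0 members with an unadjusted p under 0.05), and their median difference was 0.04, with 5 above and 4 below 0. Of the 12116 rows tested, 3158 lay above and 8955 below 0. SNORD10 differed by 0.97 ± 0.77 (limma, adjusted p = 0.690), and SNORD89, in the other direction, by -0.84 ± 0.56 (adjusted p = 0.617). Without t2iGo H1, SNORD10 (1.32) and SNORD8 (-3.92) passed (limma, adjusted p = 0.0476 and 2.31e-26). The spread in that fit was again taken almost wholly from other genes (761 prior degrees of freedom). SNORD10 differed by 3.96 in primed H1, where its control was listed at 0, and by -1.33 in 5iLA H7. SNORD8 had a value there only in the 5iLA H7 control library. With pCCNE1 against uCCNE1, 0 of 9 passed (limma, 0% of all rows, 4 members with an unadjusted p under 0.05), and the median was -0.96 against -0.02 over all rows. SNORD15B differed by -1.62 ± 0.38 (limma, adjusted p = 0.951), SNORD94 by -1.66 ± 0.52 and SNORD15A by -2.37 ± 0.82 (both adjusted p = 0.990). The 3 comparisons share libraries and are not independent of one another. No gene of the particle list (22) or the host list (44) passed for any of them.

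Within a culture each shRNA is 1 library against 1 control library, with no test. In 5iLA H7 with pCCNE1, all 9 members were lower by at least 1 on the log2(RPKM + 1) scale and 0 higher, against 3.34% and 0.696% of all rows with a value, and the median was -2.37. These are values as deposited, with a summed RPKM of 140408 with pCCNE1, 139202 with uCCNE1 and 224314 with the control. With pCCNE1, SNORD15A (-1.07) and SNORD17 (-1.26) lay nearest to the bound of 1. The part of the scaling in these differences was not tested. SNORD89 stood at 180 against 1316 RPKM in the control library, SNORD94 at 32.2 against 237 and SNORD15B at 719 against 2512. With uCCNE1 8 of 9 were lower there, as were 12496 of the 17920 rows with a value. By at least 1, 4 were lower against 3.44% of all rows, and 0 were higher against 0.424%. H/ACA box snoRNAs were lower as well, 45 of 63 by at least 1 with pCCNE1 and 40 of 63 with uCCNE1. The share of all small non-coding RNAs in RPKM also stood lower, at 27.5% with the control, 20.5% with uCCNE1 and 16.2% with pCCNE1, so the members moved with their wider class, and the part of this in their difference was not tested.

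In t2iGo H1 the members did not move one way. With pCCNE1, 5 were higher and 4 lower, against 7016 and 10560 of the 17578 rows with a value. By at least 1, 3 of 9 were higher and 3 of 9 lower, against 0.62% and 1.92% of all rows. SNORD97 was 2.24 times and SNORD89 2.21 times the control value, while SNORD94 was 0.390 times and SNORD10 0.436 times. With uCCNE1, 7 of 8 members with a value were higher, as were 8896 of the 17689 rows with a value. By at least 1, 3 were higher against 0.317% of all rows, and 0 were lower against 0.447%. The largest ratios were those of SNORD22 at 5.08 times, SNORD94 at 3.30 times and SNORD97 at 2.39 times. The fibroblast markers also stood higher with both shRNAs in t2iGo H1: COL3A1 was at 47.3, 86.9 and 136.5 RPKM with the control, uCCNE1 and pCCNE1 shRNA and LUM at 13.9, 32.7 and 71.5, and the sum of the 5 was 67.0 with the control and 220 with pCCNE1. Their part in the differences of the members was not tested. In primed H1, 4 members had a value with uCCNE1 or its control, of which 1 was higher and 1 lower by at least 1, against 0.477% and 2.35% of all rows. With pCCNE1 there were 5, of which 2 were higher and 2 lower by at least 1, against 0.717% and 2.77%.

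**Figure D5:**
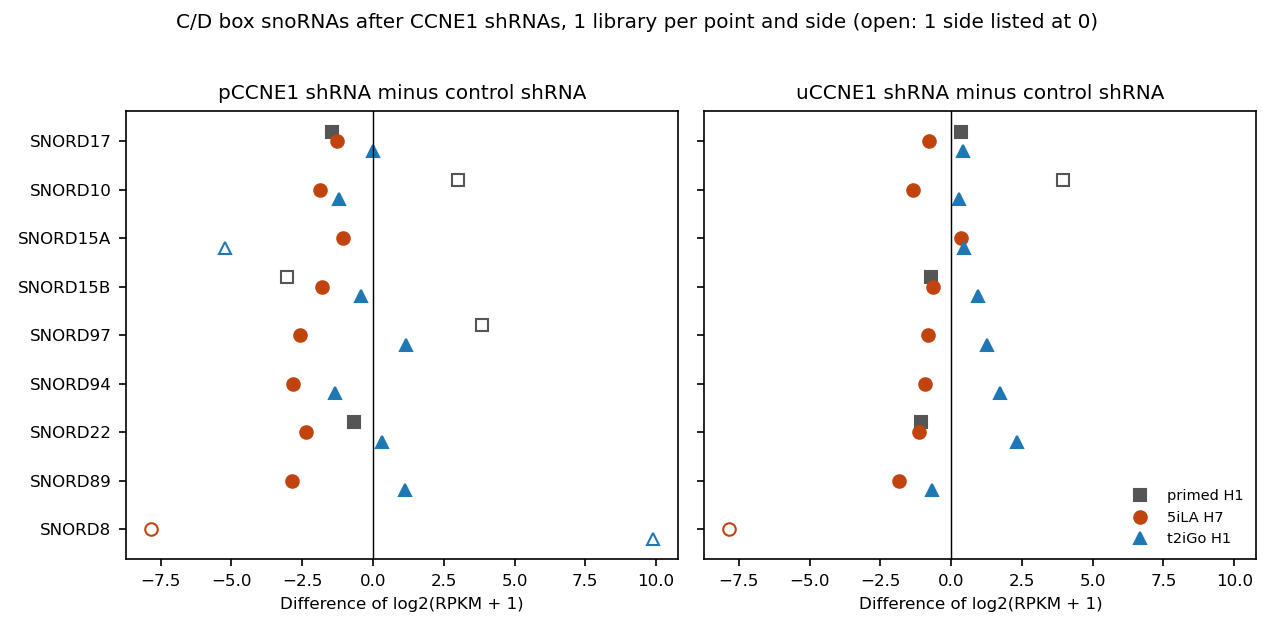
Difference of log2(RPKM + 1) between the pCCNE1 (left) or uCCNE1 (right) shRNA library and the control library of the same culture (horizontal axis) for the 9 C/D box snoRNAs with a value, with squares for primed H1, circles for 5iLA H7 and triangles for t2iGo H1, 1 library on each side. Open symbols have 1 side listed at 0, and members at 0 on both sides are not drawn. All 9 circles on the left lie below -1, while the triangles lie on both sides of 0.

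Whether an shRNA effect differed between the naive media and primed H1 was tested with a term for that difference. For both shRNAs 1 of 9 members passed, SNORD10, with a naive minus primed difference of -4.52 ± 0.64 for pCCNE1 (limma, adjusted p = 0.0352) and -4.49 ± 0.64 for uCCNE1 (adjusted p = 0.0467). Over all rows, 0.116% were called lower and 0.107% higher for pCCNE1, and 0.107% and 0.0495% for uCCNE1. The primed side of each test is 1 library against 1 control library, so the residual spread (2 degrees of freedom) came from the naive cultures only. It was moderated by that of other genes, with 6.78 prior degrees of freedom. Both results rest on the same primed H1 control library, where SNORD10 was listed at 0 while the other 2 primed libraries held 14.6 and 6.95 RPKM. Neither passed with quantile normalization, with rescaling or with no filter on low values. SNORD97 differed by -4.55 ± 1.18 for pCCNE1 (limma, adjusted p = 0.349).

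The untreated H7 libraries compared 5iLA with primed cells of 1 line, without virus and with no test. Of the 9 members, 8 were higher in 5iLA, as were 11867 of the 18850 rows with a value. By at least 1, 6 were higher, against 7.05% of those rows. SNORD89 alone was lower, at 0.202 times, where 2.58% of all rows were lower by at least 1. SNORD94 stood 23.3 times as high in 5iLA, SNORD97 12.3 times, SNORD17 7.90 times and SNORD10 5.62 times, while SNORD22 and SNORD15B differed least, at 1.56 and 1.37 times. SNORD8 and SNORD15A were listed at 0 in primed H7. H/ACA box snoRNAs were higher by at least 1 in 63 of 73. The depth estimate was 24.9 M reads in 5iLA and 13.4 in primed H7, the share of small non-coding RNAs 31.6% and 9.86%, and the summed fibroblast markers 52.6 and 16.0 RPKM. Their part in the difference was not tested.

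The classes were set side by side within a shared range of lengths. Of the members, 6 lie between 121 and 150 nt (SNORD10, SNORD15A, SNORD15B, SNORD22, SNORD94 and SNORD97), and 96 H/ACA box snoRNAs lie in the same range. Lengths within it were not matched: 4 of the 6 but only 4 of the 96 are of 141 to 150 nt, where lower values occur. In primed H1, 2, 3 and 3 of the 6 had a value with the control, uCCNE1 and pCCNE1 shRNA, and 21, 28 and 31 of the 96. In 5iLA H7 all 6 had a value in each library, against 53, 43 and 43 of the 96, and in t2iGo H1 6, 6 and 5, against 43, 43 and 26. Untreated primed and 5iLA H7 had 5 and 6 of the 6, and 33 and 64 of the 96. Both classes had fewer values in primed H1 control than in any naive control library. With pCCNE1, however, H/ACA box snoRNAs had fewer values in t2iGo H1 (26) than in primed H1 (31). With only 6 members no test was made.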

How the data were processed

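The authors deposited RPKM values per gene for 23287 rows in 2 tables, 1 with the 9 shRNA libraries and 1 with the 2 untreated libraries, which were not compared by any test. Per the submitters' processing notes, TopHat2 2.3.0, Cufflinks 1.2.1 and the hg19 build were named. What each tool did, the annotation and the use of strand were not given in the sources used here. Per the labels' protocols, RNeasy Mini kits gave the RNA and TruSeq RNA kits the libraries. Lengths came from RefSeq (GRCh38.p14) and sequences and host genes from GENCODE 29 (GRCh38), so only chromosomes from the deposited tables are printed. The sequence of SNORD15B is not reported here.

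Values were analysed as log2(RPKM + 1), which understates changes of low values, with limma 3.58.1 in R 4.3.3, an intensity trend and Benjamini-Hochberg adjustment over all rows tested. One model held all 9 shRNA libraries, with culture and shRNA as terms (4 residual degrees of freedom); naive minus primed shRNA effects had added terms (2 residual degrees of freedom). The shRNA tests kept rows with a mean of at least 1 RPKM (12116), and the tests of cultures kept all rows. The fit was tested on simulated data. Depth was estimated from the RPKM of single reads, so no counting interval is given.

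The members and gene lists were chosen with earlier results of these data known. Named per test were the members passing, or the 3 smallest p per direction, besides those chosen by role, level and host gene. Others singled out were chosen after their values were seen. Alternatives were another pseudocount, filter or scaling, and leaving out libraries. The count of members with a value without 1 culture or library, and the GENCODE lengths, were added after seeing the data.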

Additional observations from a re-analysis of the deposited data

Results flagged for a closer look

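The effect of each CCNE1 shRNA on SNORD10, a guide of U6 RNA methylation, passed a test of its difference between the naive media and primed H1. It was -4.52 on the log2(RPKM + 1) scale for pCCNE1 (limma, adjusted p = 0.0352) and -4.49 for uCCNE1 (limma, adjusted p = 0.0467). SNORD10 stood at 0, 14.6 and 6.95 RPKM with the control, uCCNE1 and pCCNE1 shRNA in primed H1, at 562, 223 and 153 in 5iLA H7 and at 459, 554 and 200 in t2iGo H1. Both results use the primed H1 control library, where it was listed at 0, so they are not independent of each other. The primed side of each is 1 library against 1, so a single primed pair sets each call. The residual spread came from the naive cultures only and was moderated by that of other genes (6.78 prior degrees of freedom). Neither passed with rescaling, quantile normalization or no filter on low values.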

How the results depend on the processing

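The culture term of the model already set each shRNA library against the control of the same culture. No paired analysis by replicate number was possible because each group had a single library and the labels give no replicate numbers. The count of members called rested on which cultures were kept. For pCCNE1 against control it was 0, but 2 without primed H1 and 6 without t2iGo H1. For uCCNE1 against control it was 0, but 2 without t2iGo H1, and for pCCNE1 against uCCNE1 0, but 2 without primed H1 and 1 without t2iGo H1. For the naive minus primed difference of either shRNA it was 1, but 0 with rescaling, quantile normalization or no filter, and for pCCNE1 2 with a pseudocount of 0.1; the cause was not tested. All other alternatives of these counts stayed within 1.5 times. For t2iGo H1 against primed H1 the count of 6 was 4 to 8 over the alternatives. The 8 came with the filter on the mean, which members at 0 in primed H1 passed only through the other cultures.

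The single members whose difference changed sign had not passed with all libraries, and of them only SNORD8 passed after the change (pCCNE1 against control without t2iGo H1, limma, adjusted p = 5.77e-26, with a value in 1 of 6 libraries). For pCCNE1 against control SNORD97 became -0.71 without primed H1 and SNORD8 -3.92 without t2iGo H1. For uCCNE1 against control SNORD15B became 0.092 with rescaling, 0.050 with quantile normalization, 0.16 without primed H1 and 0.11 without 5iLA H7, SNORD10 -0.53 without primed H1 and SNORD94 -0.47 without t2iGo H1. For pCCNE1 against uCCNE1 SNORD97 became -0.93 without primed H1 and SNORD89 -0.51 without t2iGo H1. For 5iLA H7 against t2iGo H1, without the pCCNE1 libraries, SNORD15A became -0.37 and SNORD8 3.92. Leaving out any culture, the untreated libraries or t2iGo H1 pCCNE1 left 9 members with a value. RPKM of short RNAs cannot be turned into reads here, so a value of 0 does not show that a member was absent.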
